A study of Homo sapiens with 5 samples.

Results

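Oxidative phosphorylation is carried out by 5 protein complexes of the inner mitochondrial membrane, and this account describes the RNA of their subunit genes in MDA-MB-468, a triple-negative breast cancer cell line. Genes were chosen by symbol: NDUFA, NDUFB, NDUFC, NDUFS and NDUFV genes (assembly factors left out), SDHA to SDHD, the UQCR genes and CYC1, the COX4 to COX8 genes, the ATP5 genes and the mitochondrially encoded protein genes, whose symbols start with MT-. The rule matched 106 of 33538 genes. Of these, 89 were nuclear protein genes, 13 were MT- genes and 4 were antisense or read-through transcripts (NDUFB2-AS1, NDUFV2-AS1, ATP5MF-PTCD1 and NDUFC2-KCTD14). The rule reads symbols and no measured value, though members and gene lists were chosen with earlier results of these data known.

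The data came from 5 samples, each stained with its own hashtag antibody, pooled and sequenced as 1 single-cell library that counts a tag at the 3' end of each polyadenylated transcript. The samples were an HA control, an HA FOSL1 sample, a VPR control, and VPR samples carrying FOSL1 gRNA2 or gRNA3, all in MDA-MB-468. FOSL1 encodes a FOS-family subunit of the AP-1 transcription factor. The labels call the set GOF, do not spell out HA or VPR, do not say whether a sample is 1 clone or a pool, and mention 5-FU for the series in general without saying whether these samples received it. Each group holds 1 sample, so no difference between 2 samples has a replicate check. After filtering, 14642 cells remained, between 1826 and 4299 per sample, with 42058533 to 85556699 unique molecular identifiers (UMIs, each standing for 1 captured molecule) per sample. FOSL1 itself was measured at 8.96 CPM (a gene's UMIs over all gene UMIs of the sample, scaled to the same total in each) in the HA control and 63.5 in HA FOSL1. It was at 8.91 CPM in the VPR control, 101 in gRNA2 cells and 94.3 in gRNA3 cells, so the target gene was higher in each FOSL1 sample than in its control. The 6 epithelial markers examined were detected in every sample, and 7 markers of blood, endothelial and stromal cells summed to between 4.27 and 7.73 CPM.

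Complex I oxidises NADH, complex II oxidises succinate, complex III passes the electrons to cytochrome c, complex IV reduces oxygen, and complex V, the ATP synthase, uses the proton gradient built by complexes I, III and IV. Complex II is encoded wholly in the nucleus, whereas the other complexes combine nuclear subunits with a few encoded by mitochondrial DNA. The MT- genes are transcribed as long polycistronic RNAs from both strands of the circular genome and cut into single messengers, with MT-ATP8 and MT-ATP6 sharing 1 messenger and MT-ND4L and MT-ND4 sharing another. Nuclear subunit genes are transcribed one by one, and factors such as NRF1, the ETS-family factor GABP and YY1 are known to bind many of their promoters. Levels below are compared between samples and not between genes, since capture of a 3' tag differs from gene to gene.

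The promoters of 4 nuclear subunit genes are shown because these genes were called in the test of the HA against the VPR system described further on. That test cannot tell a difference between systems from a difference between cultures. Each window is the 250 bases before a RefSeq gene start, on the gene's own strand in build GRCh38.p14, and capitals mark matches to any of the 6 motifs listed below. ATP5IF1 encodes the inhibitor of the ATP synthase, ATP5MC2 its membrane ring subunit c, NDUFA5 an accessory subunit of complex I and NDUFV1 the complex I subunit that binds NADH. The ATP5IF1 window lies at chr1:28235874-28236123 on the plus strand, and the NDUFV1 window at chr11:67606686-67606935 on the plus strand. The ATP5MC2 window lies at chr12:53676084-53676333 on the minus strand, inside the annotated span of the gene, and is the first of 3 listed. The NDUFA5 window lies at chr7:123601652-123601901 on the minus strand and is also the first of 3 listed.
ATP5IF1: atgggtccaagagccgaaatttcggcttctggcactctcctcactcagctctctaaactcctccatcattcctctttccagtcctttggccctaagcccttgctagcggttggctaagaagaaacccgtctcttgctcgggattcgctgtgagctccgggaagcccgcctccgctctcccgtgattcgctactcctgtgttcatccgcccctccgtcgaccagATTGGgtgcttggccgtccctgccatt
ATP5MC2: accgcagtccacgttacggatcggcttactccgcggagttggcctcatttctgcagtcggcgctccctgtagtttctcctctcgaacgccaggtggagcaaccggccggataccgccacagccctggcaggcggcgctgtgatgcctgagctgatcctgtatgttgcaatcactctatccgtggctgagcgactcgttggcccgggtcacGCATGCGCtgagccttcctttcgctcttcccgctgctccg
NDUFA5: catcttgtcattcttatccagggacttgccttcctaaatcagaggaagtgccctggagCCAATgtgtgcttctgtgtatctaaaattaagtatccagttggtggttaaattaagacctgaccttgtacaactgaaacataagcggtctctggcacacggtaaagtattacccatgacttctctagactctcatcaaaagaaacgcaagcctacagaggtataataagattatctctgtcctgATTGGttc
NDUFV1: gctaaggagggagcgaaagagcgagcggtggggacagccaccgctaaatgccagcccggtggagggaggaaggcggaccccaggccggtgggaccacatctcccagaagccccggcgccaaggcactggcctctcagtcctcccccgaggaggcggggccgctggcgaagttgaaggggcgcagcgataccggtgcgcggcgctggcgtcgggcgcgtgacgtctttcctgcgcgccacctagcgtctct

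Promoter windows were found for 67 of the 89 nuclear genes, and both strands of each were searched for short motifs. The AP-1 letters TGANTCA, where N is any base, occurred in 4 of the 67 windows (5.97%), against 3.35% of the windows of genes at 20 CPM or more and 6.60% of all promoter windows. The 4 were those of COX7B2, COX7C, NDUFB3 and NDUFS6, and none of the windows printed above holds these letters. A longer NRF1 palindrome was found in 20.9% of the subunit windows, against 13.2% of those of genes at 20 CPM or more and 5.53% of all. The ETS letters CCGGAAG were in 23.9%, 19.4% and 8.82% of the same sets, and a YY1 motif in 1.49%, 0.577% and 0.359%. None of these 4 motifs had a match in the windows printed above, and a pair of further motifs was searched after that was seen. The shorter NRF1 letters GCATGCGC, which can overlap the palindrome, were in 17.9%, 5.62% and 2.81% of the sets and once in the ATP5MC2 window. The letters CCAAT were in 34.3%, 36.7% and 33.0%, with matches in the ATP5IF1 and NDUFA5 windows, while NDUFV1 had no match to any of the 6. A match describes the letters only, and binding was not measured.

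RNA from the mitochondrial genome made up less of the total in each FOSL1 sample than in its control, while the summed nuclear subunit RNA differed by less. The 13 MT- genes together made up 112924 CPM in the HA control and 94082 in HA FOSL1, a change of -16.7%. In the VPR system they made up 110552 CPM in the control, 101929 in the gRNA2 sample (-7.80%) and 101352 in the gRNA3 sample (-8.32%). All 3 FOSL1 samples were thus below both controls, and the VPR control differed from the HA control by -2.10%. The 89 nuclear genes summed to 30493 CPM in the HA control and 29091 in HA FOSL1 (-4.60%). They summed to 30711 CPM in the VPR control, 30449 in gRNA2 cells (-0.855%) and 30893 in gRNA3 cells (0.590%), so the VPR samples lay on both sides of their control. For the nuclear sum the VPR control differed from the HA control by 0.715%, less than HA FOSL1 did. On the log2 scale the MT- ratio was -0.26 in the HA arm (exact conditional binomial 95% interval -0.265 to -0.262), and such an interval covers counting error only, not how repeat cultures would vary.

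**Figure D1:**
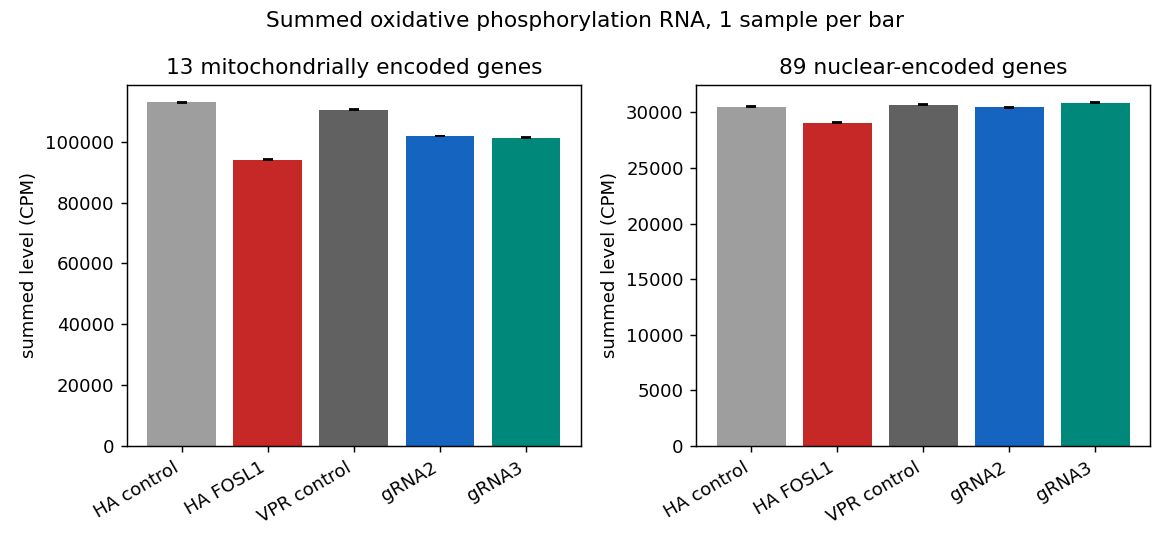
Summed level, in CPM, of the 13 mitochondrially encoded genes (left) and the 89 nuclear-encoded genes (right) in each of the 5 samples, with 95% Poisson intervals (exact, counting error alone). The MT- bars of the 3 FOSL1 samples (94082, 101929 and 101352) are below both controls, whereas the nuclear bars all lie between 29091 and 30893.

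The size of the mitochondrial difference depended on which cells entered the sums. HA FOSL1 cells were deeper, with a median of 20769 UMIs per cell against 15402 in the HA control, and the VPR medians were 15810 in the control, 17415 with gRNA2 and 18121 with gRNA3. In all 5 samples the MT- share of a cell's UMIs was lower in deeper cells, with Spearman correlations across cells between -0.25 and -0.29. The share of nuclear subunit genes among a cell's UMIs outside the MT- genes was lower too, with correlations between -0.33 and -0.39. The depth is the divisor of the MT- share and contains the divisor of the nuclear share, so these correlations are given as a description. Among cells of 15000 to 20000 UMIs, MT- genes took 11.3% of UMIs in the HA control and 10.0% in HA FOSL1, and 11.1%, 10.6% and 10.6% in the VPR control, gRNA2 and gRNA3 samples. In all 5 depth bands of the HA arm the log2 ratio of the MT- share stayed below 0, from -0.13 to -0.35. The -0.35 was in the band of 5000 to 10000 UMIs, which held 44 HA FOSL1 cells. In the gRNA3 arm the ratio was also below 0 in all 5 bands, from -0.0096 to -0.12. With gRNA2 it was below 0 in 4 bands, down to -0.14, and at 0.011 among the 76 cells of 5000 to 10000 UMIs. For the nuclear sum in the HA arm, the band ratios ran from -0.057 to 0.0012. The HA nuclear ratio, -0.068 over all cells, shrank to -0.031 among cells of 10000 to 20000 UMIs and to -0.034 under TMM scaling.

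**Figure D2:**
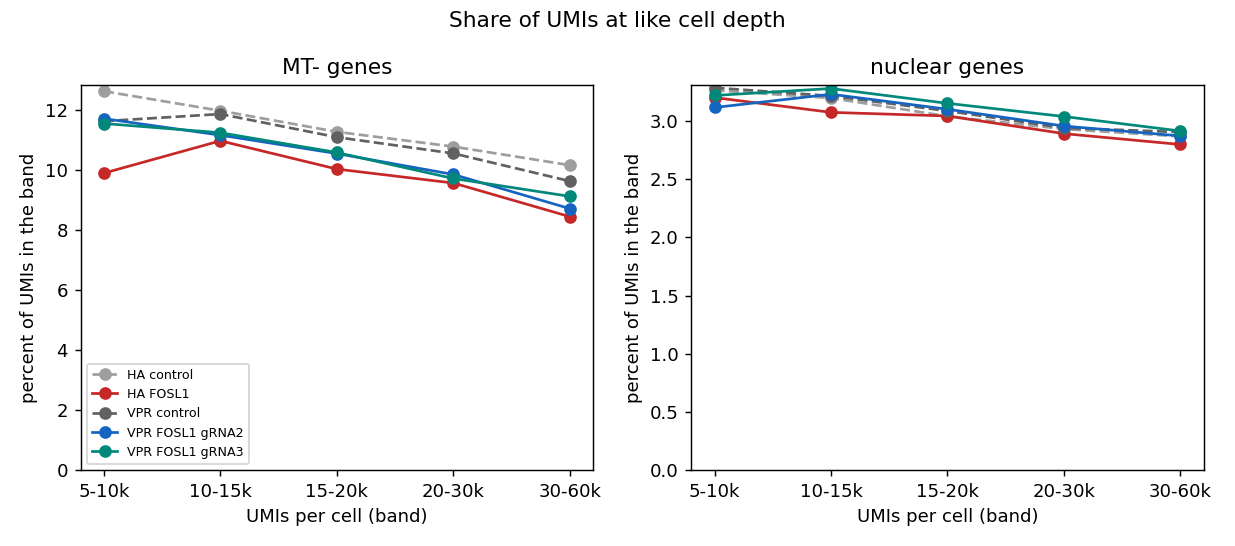
Percent of UMIs from MT- genes (left) and from nuclear subunit genes (right) in cells grouped by their UMI count, 1 line per sample and controls dashed. In the band of 15000 to 20000 UMIs the HA FOSL1 sample is at 10.0% MT- UMIs and the HA control at 11.3%, while the nuclear lines nearly coincide.

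Cells with few mitochondrial UMIs were more frequent in the FOSL1 samples. Of the HA control cells, 1.42% held under 5% MT- UMIs (95% interval 1.05% to 1.88%, Clopper-Pearson), and of the HA FOSL1 cells 5.97% did (4.93% to 7.16%). In the VPR system the share was 1.39% in the control (0.973% to 1.92%), 2.87% with gRNA2 (2.26% to 3.60%) and 2.98% with gRNA3 (2.49% to 3.53%). Their median depth was 15232 UMIs in the HA control, 21069 in HA FOSL1, 12790 in the VPR control, 19191 for gRNA2 and 19984 for gRNA3, so in the VPR control they were shallower than the sample's cells as a whole and in the guide samples deeper. The whole distribution was also lower: the median cell held 11.5% MT- UMIs in the HA control and 9.80% in HA FOSL1, against 11.3%, 10.6% and 10.5% in the VPR control, gRNA2 and gRNA3 samples. After each cell was thinned to 5000 UMIs these medians were 11.5%, 9.80%, 11.3%, 10.5% and 10.5%. Thinning leaves the expected share of each cell unchanged, so these medians do not adjust for the depth difference between samples. When cells above 10% MT- UMIs were left out, the log2 ratio of the MT- sum was -0.15 in the HA arm (-0.26 before), -0.072 with gRNA2 (-0.12 before) and -0.067 with gRNA3 (-0.13 before). This cut selects cells on the MT- share itself and lies below the median cell of every sample but HA FOSL1. Barcodes holding free RNA (10 to 100 UMIs) carried 4.26% MT- UMIs, and taking 5% of each sample as free RNA left the HA ratio at -0.27.

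Complex by complex, the mitochondrially encoded subunits of complexes IV and V were the furthest below control and those of complexes I and III less so. MT- complex IV subunits summed to 63758 CPM in the HA control and 51202 in HA FOSL1 (-19.7%), and MT- complex V subunits to 17502 and 14297 (-18.3%). MT- complex I subunits summed to 22683 and 20364 CPM (-10.2%), and MT-CYB, the only MT- gene of complex III, stood at 8981 and 8219 (-8.49%). In the guide arms the MT- changes of complexes I, III, IV and V were -6.17%, -4.98%, -8.13% and -10.2% with gRNA2 and -6.40%, -4.88%, -8.72% and -11.1% with gRNA3. Each of these 12 values was negative under all scalings tried.

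Nuclear subunits of the same complexes moved less. In the HA arm the nuclear sums of complexes I, III and IV changed by -7.34%, -6.04% and -6.68%, with negative values also under TMM scaling and with nuclear UMIs as the total. Nuclear complex V changed by 1.26% and complex II by 1.88% in the HA arm, and both turned negative when nuclear UMIs were the total. With gRNA2 the nuclear sums of complexes I to V changed by -2.46%, 2.26%, -0.279%, -1.77% and 1.64%. With gRNA3 they changed by -1.29%, 6.16%, 1.03%, -0.676% and 3.69%. For gRNA3 the signs of complexes I and IV turned under TMM scaling and that of complex III with nuclear UMIs as the total, and for gRNA2 that of complex III turned under TMM scaling (log2 -0.0040 to 0.0044). NDUFA4, named as a complex I gene, encodes a protein now placed in complex IV, and moving it there gave changes of -7.58%, -2.27% and -1.27% for nuclear complex IV in the 3 arms.

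**Figure D3:**
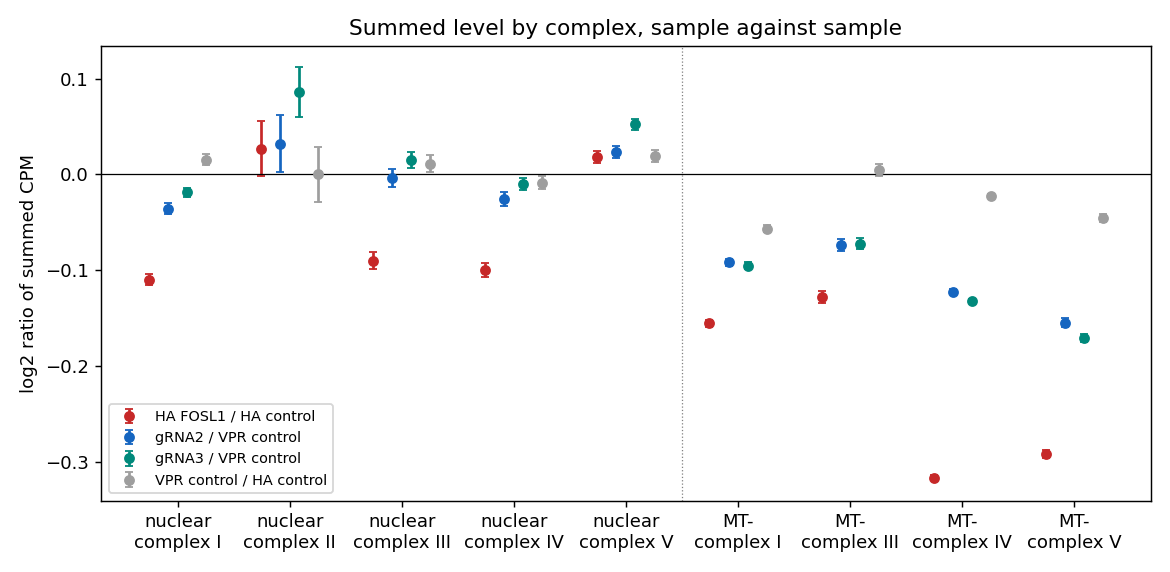
Log2 ratio of summed CPM by complex for the 3 FOSL1 arms and for the VPR control over the HA control (grey), with exact conditional binomial 95% intervals that cover counting error only. The HA points of MT- complexes IV and V lie near -0.32 and -0.29, and all nuclear points lie between -0.11 and 0.09.

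Single MT- genes differed in how far they lay from control. MT-CO3, a core subunit of complex IV, stood at 24078 CPM in the HA control, 17908 in HA FOSL1, 23481 in the VPR control, 21103 for gRNA2 and 20929 for gRNA3. The 2 controls were the highest samples and HA FOSL1 the lowest, with log2 ratios (here and below of CPM + 1) of -0.43 for HA, -0.15 for gRNA2 and -0.17 for gRNA3. MT-CO1, which holds the oxygen-reducing centre, stood at 16446, 13698, 15872, 14702 and 14797 CPM in the same order, and MT-CO2 at 23235, 19596, 23423, 21866 and 21575. Both had the controls on top and HA FOSL1 lowest. MT-ATP6, which forms the proton channel, was at 17458 CPM in the HA control and 14261 in HA FOSL1, and at 16913, 15194 and 15030 in the VPR samples. MT-ATP8, from the same messenger, was at 43.9, 36.5, 42.7, 37.4 and 36.7 CPM, with the same order of control above FOSL1 sample. Leaving MT-CO3 out of the MT- sum gave changes of -14.3%, -7.17% and -7.64% in the 3 arms.

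MT- complex I genes were the most uneven. MT-ND6, the only protein gene on the other strand of the mitochondrial genome (MT:14149-14673), stood at 186 CPM in the HA control, 106 in HA FOSL1, 143 in the VPR control, 123 for gRNA2 and 123 for gRNA3. Its log2 ratios were -0.81, -0.22 and -0.22, but the VPR control stood at -0.37 against the HA control, further than either guide sample from its own control. MT-ND6 RNA is known to lack the poly(A) tail of the other mitochondrial messengers, which a poly(A)-primed library depends on. MT-ND1, MT-ND4 and MT-ND5 were at log2 ratios of -0.27, -0.20 and -0.26 in the HA arm, and between -0.08 and -0.18 in the guide arms. MT-ND2 and MT-ND3 were at -0.0096 and -0.054 in the HA arm, and MT-ND2 turned to 0.025 under TMM scaling and to 0.017 without the 10% of cells with the most UMIs. MT-ND4L was at 0.047 in the HA arm and at -0.11 and -0.09 with gRNA2 and gRNA3. As a share of all MT- UMIs, MT-CO3 made up 21.3% in the HA control and 19.0% in HA FOSL1, and 21.2%, 20.7% and 20.6% in the VPR samples. MT-CYB went from 7.95% to 8.74% in the HA pair and was at 8.15%, 8.40% and 8.46% in the VPR samples.

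Of the 89 nuclear genes, 79 averaged 20 CPM or more over all 5 samples and are counted here, as are all 13 MT- genes. In the HA arm 24 of the 79 lay above and 55 below control, with a median log2 ratio of -0.083, while 50.8% of the 5748 genes counted lay above and 49.2% below, with a median of 0.0042. With gRNA2, 35 lay above and 44 below (median -0.005), where 53.9% of all genes lay above and 46.1% below. With gRNA3, 50 lay above and 29 below (median 0.023), where 50.7% lay above and 49.3% below. The gRNA2 split, 55.7% below, moved to 65.8% below with nuclear UMIs as the total and to 46.8% below (42 above, 37 below) under TMM scaling, so its majority turned, and the gRNA3 split moved to 25.3% below under TMM scaling, from 36.7%. At 1.2-fold in the HA arm, 2 of the 79 nuclear genes were higher and 5 lower, against a background of 17.3% higher and 13.3% lower among all genes. Of the 13 MT- genes, 5 were at least 1.2-fold lower in the HA arm, and MT-ND6 was 1.5-fold lower, as were 2.19% of all genes. The number of members at least 1.2-fold lower in the HA arm, 10, became 16 with nuclear UMIs as the total and 6 under TMM scaling. Between the 2 controls, where 1.05% of all genes were 1.2-fold higher and 1.19% lower in VPR, MT-ND6 was lower by that much and no other member passed. No member passed 1.2-fold in either guide arm, where 4.07% (gRNA2) and 4.41% (gRNA3) of all genes were higher and 3.30% and 4.48% lower.

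**Figure D4:**
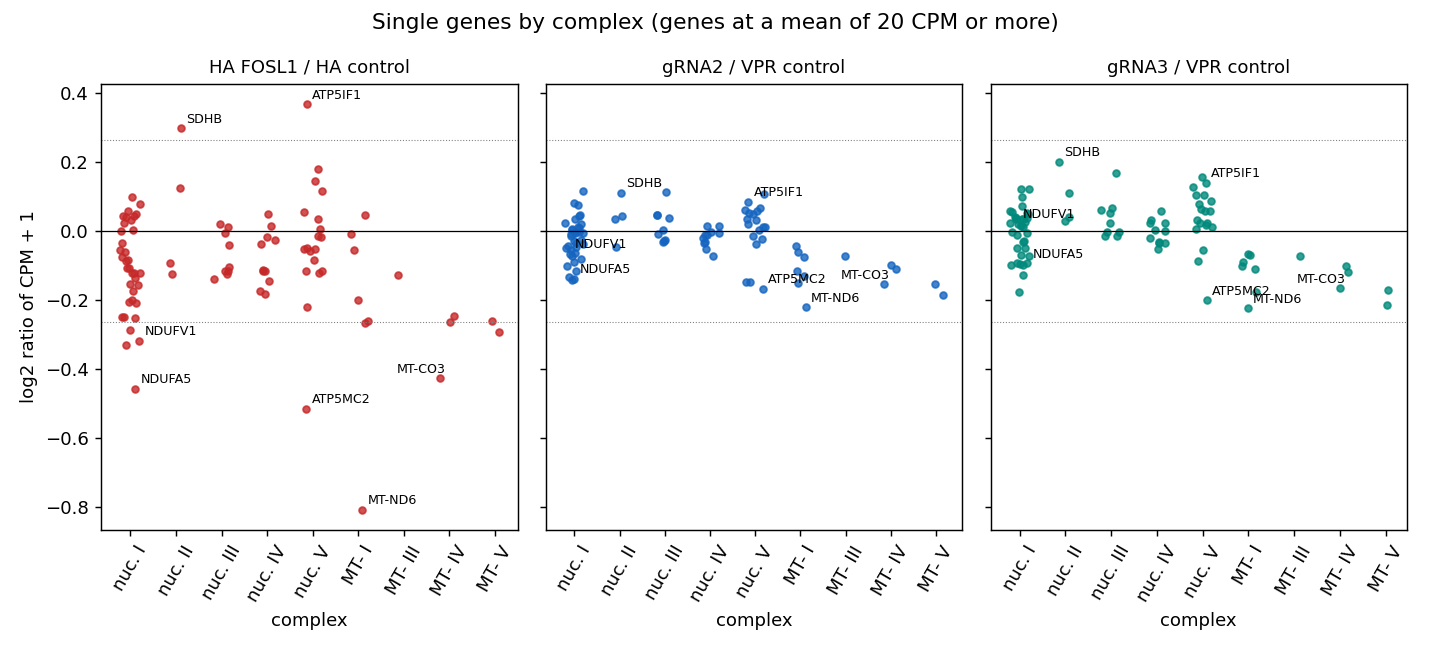
Log2 ratio of CPM + 1 for each gene at a mean of 20 CPM or more, by complex and genome of origin, in the 3 arms, with dotted lines at 1.2-fold. In the HA panel the points spread from MT-ND6 at -0.81 to ATP5IF1 at 0.37, and in the guide panels every point stays between the dotted lines.

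Among the nuclear complex I genes, the lowest HA ratios were those of NDUFA5, NDUFB6, NDUFV1 and NDUFA3. NDUFA5 was at 99.2 CPM in the HA control, 72.0 in HA FOSL1, 96.0 in the VPR control, 87.2 for gRNA2 and 89.9 for gRNA3, so HA FOSL1 was lowest and both guides were below their control by little (log2 ratios -0.46, -0.14 and -0.09). NDUFV1 was at 201, 161, 199, 190 and 202 CPM, with only HA FOSL1 standing clearly apart. NDUFB6 and NDUFA3, both accessory subunits, were at -0.33 and -0.29 in the HA arm, -0.07 and -0.09 with gRNA2, and -0.10 and -0.07 with gRNA3. NDUFB4 was at 367, 325, 380, 344 and 336 CPM and was among the 5 lowest nuclear members in both guide arms. NDUFB11 and NDUFA4 were also among the lowest 5 with gRNA3, at -0.13 and -0.10. NDUFS4, an accessory subunit needed for a stable complex, was the highest nuclear member with gRNA2, at 81.8 CPM against 75.4 in the VPR control.

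In complex II, SDHB, the iron-sulfur subunit, was higher in each FOSL1 sample than in its own control. It was measured at 65.4 CPM in the HA control, 80.7 in HA FOSL1, 71.1 in the VPR control, 76.9 for gRNA2 and 81.9 for gRNA3. For SDHB the VPR control stood at a log2 ratio of 0.118 against the HA control, further than gRNA2 from its own control (0.111). SDHA, the flavoprotein, was at 123, 112, 124, 127 and 127 CPM, and the membrane anchors SDHC and SDHD were at log2 ratios of 0.12 and -0.09 in the HA arm and between -0.05 and 0.11 in the guide arms. In complex III, CYC1, which encodes cytochrome c1, was at 130 and 131 CPM in the HA pair and at 128, 138 and 143 in the VPR samples. The other counted nuclear genes of complex III lay between -0.14 and 0.07 in the 3 arms.

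Nuclear complex IV genes come partly as tissue isoform pairs, and here 1 member of most pairs had few or no UMIs. COX4I1 was at 826 to 919 CPM, whereas COX4I2, its lung isoform, had at most 2 UMIs in any sample. COX6A1, COX6B1, COX7B and COX8A were at 297, 823, 631 and 652 CPM in the HA control, and COX6A2, COX6B2, COX7B2 and COX8C had at most 16 UMIs in a sample. COX7A2 ranged from 953 to 1046 CPM and COX7A2L from 118 to 123, while COX7A1, the heart and muscle isoform, had 0 UMIs in all samples, where 3 UMIs would be 0.0351 to 0.0713 CPM. NDUFA4 was at 626 to 745 CPM and NDUFA4L2, its hypoxia-induced paralog, at 0.238 to 0.437. The other low nuclear members were NDUFA7 at 15.1 to 16.3 CPM and UQCRHL and ATP5MGL, near copies of UQCRH and ATP5MG between which reads may be split, at 7.77 to 8.52 and 3.02 to 3.89. The 4 antisense and read-through transcripts were at 3.18 CPM or less, and NDUFC2-KCTD14 had no UMI.

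Complex V held both ends of the nuclear range in the HA arm. ATP5IF1, the inhibitor of ATP hydrolysis by the synthase, was at 275 CPM in the HA control, 355 in HA FOSL1, 294 in the VPR control, 312 for gRNA2 and 324 for gRNA3. The 3 FOSL1 samples were above both controls, at log2 ratios of 0.37, 0.085 and 0.14. The VPR control itself stood at 0.097 against the HA control, further than gRNA2 from its own control. ATP5MC2 was at 265 CPM in the HA control, 185 in HA FOSL1, 252 in the VPR control, 225 for gRNA2 and 220 for gRNA3, the lowest nuclear log2 ratio in each arm (-0.52, -0.17 and -0.20). ATP5MC1 and ATP5MC3 encode the same mature subunit c, which forms the rotating membrane ring, and whether their ratios differ from that of ATP5MC2 was not tested. ATP5MC1 was at 188, 188, 191, 195 and 205 CPM (log2 ratios 0.0058, 0.033 and 0.11). ATP5MC3 was at 429, 396, 424, 383 and 409 CPM, and its ratio of -0.15 with gRNA2 was close to that of ATP5MC2, while it was at -0.11 in the HA arm and -0.054 with gRNA3. The small membrane subunits ATP5MG, ATP5MD and ATP5MF were at 0.18, 0.14 and 0.12 in the HA arm and between 0.06 and 0.11 in the guide arms. ATP5F1B, the catalytic beta subunit, and ATP5PB of the stalk were among the 5 highest with gRNA3, at 0.16 and 0.13. ATP5S, a coupling factor, was at 28.6, 24.4, 31.6, 28.4 and 29.6 CPM.

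The FOSL1 state was then fitted over the 5 samples in 1 edgeR quasi-likelihood model with the system as a second term, which treats the 3 FOSL1 samples as repeats of 1 effect and leaves 2 residual degrees of freedom. Of 15439 genes tested, 0.900% rose and 0.706% fell at a Benjamini-Hochberg adjusted p under 0.05. None of the 97 members tested was called by edgeR. At an unadjusted p under 0.05, 5 members were higher and 15 lower, where 13.4% and 12.6% of all genes were. The 5 were SDHB, ATP5MG, ATP5IF1, ATP5MF and ATP5MD, and 9 of the 15 were MT- genes. All 13 MT- genes had negative fitted values, with a median of -0.14 against -0.014 over all genes, and the nuclear members a median of 0.0027. MT-ATP6 had the lowest adjusted p of any member in edgeR, 0.0825, with a fitted log2 effect of -0.19 ± 0.043 (SE). SDHB had a fitted effect of 0.24 ± 0.065 (SE) and an edgeR adjusted p of 0.105. DESeq2 on the same counts called 0 members higher and 2 lower, MT-ND6 (adjusted p = 0.0171) and ATP5MC2 (adjusted p = 0.0395), where it called 4.86% of all genes higher and 2.63% lower, and it gave no adjusted p for 5 members. Without the gRNA2 or the gRNA3 sample no gene of the whole table was called by edgeR. Without the VPR control the HA pair alone set the effect. The median fitted log2 effect was then -0.23 for the MT- genes and -0.052 for the nuclear members. Without the HA control these medians were -0.093 and 0.029, and without HA FOSL1 they were -0.091 and 0.031. In each of these fits the residual comes from the difference between the guides alone. Calls from them are therefore not read as results and are only counted among the processing settings further on. Tables were also simulated at these depths, with a spread of 0.0549 between samples and 1 log2 size per changed gene. In them edgeR called 2 of 50 genes changed by 0.1, 40 of 50 changed by 0.25 and 50 of 50 changed by 0.5. How often edgeR calls a gene whose effect differs between the HA and guide arms was not tested. Such members include MT-ND6, with a fitted effect of -0.46 ± 0.13 (SE, edgeR adjusted p = 0.119). ATP5MC2, another, was at -0.30 ± 0.079 (SE, edgeR adjusted p = 0.102).

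Whether the FOSL1 effect differed between the systems was tested in edgeR with an interaction term, the mean guide effect minus the HA effect. Of 16071 genes, 3.81% were called higher and 8.37% lower. Among the 97 members tested, 5 were called higher and 1 lower. MT-ND6 differed by 0.57 ± 0.070 (SE, edgeR adjusted p = 0.000283), NDUFA5 by 0.33 ± 0.078 (adjusted p = 0.0174), ATP5MC2 by 0.31 ± 0.066 (adjusted p = 0.00934), NDUFV1 by 0.28 ± 0.079 (adjusted p = 0.0414) and MT-CO3 by 0.25 ± 0.059 (adjusted p = 0.0178). ATP5IF1 differed by -0.28 ± 0.070 (adjusted p = 0.0237). In each of the 6 the HA FOSL1 sample lay further from its control than the guide samples did. The model has 1 residual degree of freedom, which comes from the difference between the guides alone, and the HA pair has no repeat, so these p-values do not cover how the HA samples would vary between cultures.

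**Figure D5:**
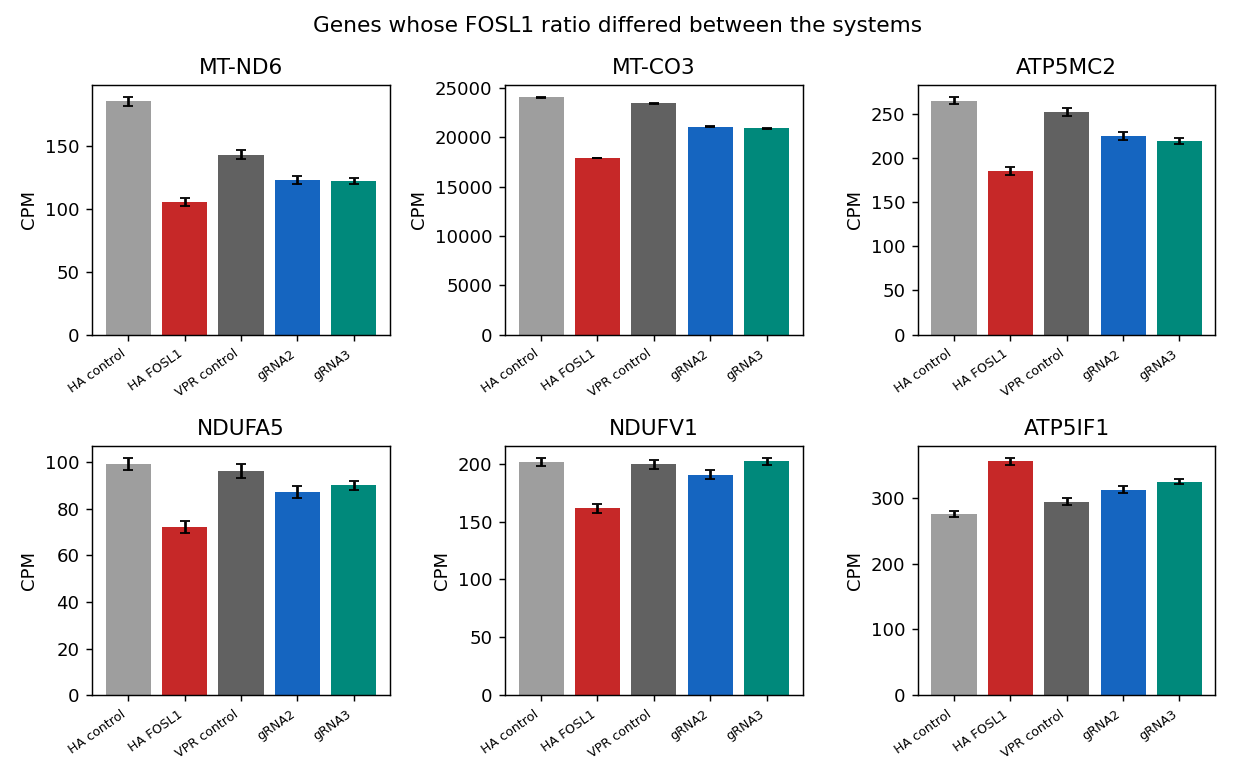
Level in CPM of the 6 member genes called in the edgeR interaction test, 1 bar per sample with 95% Poisson intervals (exact, counting error alone). HA FOSL1 is the lowest bar for MT-ND6, MT-CO3, ATP5MC2, NDUFA5 and NDUFV1 and the highest for ATP5IF1.

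Genes that build, supply or regulate the complexes were examined from lists drawn up for this purpose. Of 46 assembly factors tested in the shared edgeR model none was called, nor was any of 24 genes for upkeep and expression of mitochondrial DNA, of 13 regulators, of 10 genes of pyruvate entry, of 18 electron carriers and ADP transport genes or of 78 mitochondrial ribosome genes. At an unadjusted p under 0.05 in edgeR these lists had 4, 1, 0, 0, 5 and 12 genes higher and 3, 0, 2, 0, 1 and 0 lower, where 13.4% and 12.6% of all genes were. IDH3A, a subunit of the citrate-cycle isocitrate dehydrogenase, rose in the shared model (log2 0.38 ± 0.054 SE, edgeR adjusted p = 0.0476). It was at 25.0 CPM in the HA control, 32.1 in HA FOSL1, 25.5 in the VPR control, 32.8 for gRNA2 and 32.6 for gRNA3. It was the 1 called of 13 citrate-cycle genes, of which 4 lay higher and 1 lower by the unadjusted edgeR p at 0.05. At the adjusted p of 0.05, 0.900% of all genes rose and 0.706% fell, which holds for every list in this paragraph. SLC16A3, the lactate exporter MCT4, rose (log2 0.88 ± 0.091 SE, edgeR adjusted p = 0.0346) and was the 1 called of 20 glycolysis genes, of which 11 lay higher and 1 lower by the unadjusted p at 0.05, a share of all genes of 13.4% and 12.6%. EGFR, the epidermal growth factor receptor and 1 of the 6 epithelial markers, rose as well (log2 0.36 ± 0.038 SE, edgeR adjusted p = 0.0363).

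In each list the genes with the lowest and the highest mean ratio over the 3 arms are given as a description. TFAM, which packages mitochondrial DNA and starts its transcription, was the lowest of the genes for upkeep and expression of mitochondrial DNA. It was at 140 CPM in the HA control, 113 in HA FOSL1, 133 in the VPR control, 128 for gRNA2 and 127 for gRNA3, and GFM1, a mitochondrial elongation factor, was the highest of that list at 21.5, 22.1, 19.5, 22.4 and 22.6. Among assembly factors COA1 was the lowest at 117, 101, 122, 110 and 109 CPM, and NDUFAF2, a complex I assembly factor, the highest at 83.7, 110, 83.9, 95.3 and 97.0. SLC25A6, an ADP/ATP carrier, was at 135, 107, 119, 107 and 110 CPM, and VDAC1, an outer membrane channel, at 247, 311, 253, 285 and 287. The transcription factor SP1, lowest of the regulators, had log2 ratios of -0.38 (HA), -0.15 (gRNA2) and -0.11 (gRNA3). SUCLG1 of the citrate cycle was at -0.22, -0.071 and -0.016, and for pyruvate entry the carrier MPC1 was at -0.011, -0.19 and -0.15 and PDHA1 at 0.022, 0.0042 and 0.13. The mitochondrial ribosome genes MRPS25 and MRPS10 were at -0.29, -0.013 and 0.032 and at 0.50, 0.21 and 0.24. LDHB, a lactate dehydrogenase subunit, was at 95.5 CPM in the HA control but 53.2 in the VPR control, so that the 2 controls differed by as much as the HA pair did.

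The interaction test called 18 genes of these lists in edgeR, where 3.81% of all genes were called higher and 8.37% lower. Of 20 glycolysis genes 2 were called higher and 3 lower: LDHB (0.65) and PFKL (0.33), and PFKP (-0.82), HK2 (-0.61) and the lactate transporter SLC16A1 (-0.54). PFKP, a phosphofructokinase, was at 31.9 and 64.2 CPM in the HA pair and at 38.7, 45.0 and 44.7 in the VPR samples. HIF1A, the oxygen-regulated transcription factor, was the 1 called of 13 regulators (-0.67 ± 0.076 SE, edgeR adjusted p = 0.000168), at 60.6 and 88.4 CPM in the HA pair and 72.8, 68.0 and 67.5 in the VPR samples. Of 46 assembly factors FOXRED1 was called higher (0.34) and COX19 and TMEM126B lower (-0.34 and -0.24). Of 78 mitochondrial ribosome genes MRPL39, MRPL33 and MRPS10 were called lower (-0.38, -0.34 and -0.30). COQ9 and ETFB of the electron carriers were called higher (0.34 and 0.45), as was PDHX of pyruvate entry (0.27), and KRT7, KRT8 and KRT18 of the epithelial markers lower (-0.52, -0.88 and -0.996). No gene was called of 24 for upkeep and expression of mitochondrial DNA or of 13 of the citrate cycle, in which 3 and 0 were higher and 0 and 0 lower by the unadjusted edgeR p at 0.05. The limit on the p-values of this test given above holds here too.

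Markers of cell identity also moved with the HA FOSL1 sample. The 6 epithelial markers summed to 5905 CPM in the HA control and 10249 in HA FOSL1, and to 6381, 7881 and 7575 in the VPR control, gRNA2 and gRNA3 samples. Its members did not move alike: KRT18 was at log2 ratios of 1.24, 0.35 and 0.19 for HA, gRNA2 and gRNA3 and KRT8 at 1.14, 0.33 and 0.25, while EPCAM was at 0.16, 0.029 and 0.067 and CDH1, which encodes E-cadherin, at -0.061, -0.30 and -0.25. The 7 markers of other cell types summed to 5.45, 7.73, 4.27, 4.39 and 5.32 CPM, with CD3E at 0 in 4 samples. CD68, a macrophage marker, was the member of that list that went up most, from 0.754 to 4.11 CPM in the HA pair, with 0.692, 1.39 and 2.44 in the VPR samples. COL1A1, a collagen gene of fibroblasts, went the other way, at 4.30 and 2.45 CPM in the HA pair and 3.31, 2.50 and 2.21 in the VPR samples. The part of these markers in the mitochondrial differences was not tested.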

How the data were processed

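Members and gene lists were chosen with earlier results of these data known. The deposited matrix holds UMI counts per gene and barcode, made by the authors with Cell Ranger on hg38 (per the submitters' processing notes; version 4 per the file headers). A deposited table by the authors assigns each of 21228 called cells to a hashtag, with the assignment probability as a fraction; 15371 cells had 1 sample. Its 5 columns of hashtag probabilities were not used. Hashtags named GOF were taken as the HA samples by elimination, since the titles leave no others. The protocol speaks of 6 pooled samples; 5 were analysed here. Multiplets by hashtag were left out; doublets within a sample were not called.

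Cells with at least 1500 genes and at most 20% MT- UMIs were kept (14642) and their UMIs summed per sample. Ratios used CPM for sums and CPM + 1 for genes, which understates changes of low genes; 1.2-fold and 1.5-fold counts took genes at a mean of 20 CPM or more over the 2 samples, and no test was made between 2 samples. CPM are shares of all gene UMIs, MT- included. Intervals are exact Poisson, binomial (Clopper-Pearson) or conditional binomial at 95% and cover counting error only. Models used edgeR 4.0.16 (quasi-likelihood, TMM) and, as an alternative, DESeq2 1.42.0, in R 4.3.3, with Benjamini-Hochberg adjustment over all genes tested; edgeR was tested on simulated data. Named nuclear genes were, per arm, the 5 highest and 5 lowest ratios whose interval leaves out 0, isoform pairs, ATP5IF1 and any member called; of the other lists, called genes and the highest and lowest mean over the arms. Promoter windows are RefSeq's (GRCh38.p14). Single values of 1 gene that the naming rule selects are not reported here.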

Additional observations from a re-analysis of the deposited data

Results flagged for a closer look

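For 6 subunit genes the edgeR interaction term, guide effect minus HA effect on the log2 scale, passed an adjusted p of 0.05. It has 1 residual degree of freedom, from the difference between the guides, and 1 sample per state in the HA pair, so a difference between the systems and a difference between cultures cannot be told apart. The differences were 0.5686 for MT-ND6, 0.3109 for ATP5MC2, 0.3258 for NDUFA5, 0.2451 for MT-CO3 and 0.2771 for NDUFV1. For these genes HA FOSL1 was lower against its control than the guide samples were against theirs. With NDUFV1 the guides lay on both sides of their control, at log2 ratios of -0.066 (gRNA2) and 0.021 (gRNA3). For ATP5IF1 the difference was -0.2777, with HA FOSL1 further above its control. Adjusted p over the 4 settings of this test ran up to 0.0414 at most for these 6 genes, for NDUFV1, and down to 8.89e-10 for MT-ND6. For MT-ND6 the controls of the 2 systems also differed, at 186 CPM in the HA control and 143 in the VPR control. For ATP5IF1 they were at 275 and 294 CPM. These are 6 of 97 members tested, and 12.2% of all genes were called in this test.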

How the results depend on the processing

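No paired analysis was possible because each group holds 1 sample. The MT- sum was below control in all 3 arms under the 9 alternatives of its cells, scale or control run, and the MT- sums of each complex under the 3 run for them (no filter on the MT- share, nuclear UMIs as the total, TMM); within depth bands the MT- ratio of gRNA2 was 0.011 in cells of 5000 to 10000 UMIs. The cut at 10% MT- UMIs selects cells on the compared share itself. The cause of the shifts below was not tested. All values of sums are log2 ratios in the order HA, gRNA2, gRNA3. The MT- sum, -0.26, -0.12 and -0.13, was -0.15, -0.072 and -0.067 in cells of at most 10% MT- UMIs, -0.18, -0.089 and -0.086 in cells of 10000 to 20000 UMIs, and -0.26, -0.11 and -0.12 with no filter on the MT- share. It was -0.24, -0.10 and -0.12 without the 10% of cells with the most UMIs, -0.25, -0.11 and -0.11 with cells weighted equally, -0.27, -0.12 and -0.13 after subtraction of 5% free RNA, and -0.23, -0.15 and -0.16 against the control of the other system. The nuclear sum, -0.068, -0.012 and 0.0085, was -0.073, -0.023 and 0.00411 in cells of at most 10% MT- UMIs, -0.031, 0.000764 and 0.021 in cells of 10000 to 20000 UMIs, -0.078, -0.0021 and 0.019 against the other control, and -0.073 (HA) after subtraction of free RNA. With nuclear UMIs as the total, the nuclear sum was -0.098, -0.026 and -0.0064 and the MT- sum -0.29, -0.13 and -0.14. Nuclear complexes were then at -0.14, -0.050 and -0.034 (I), -0.00339 for HA (II), -0.12, -0.018 and -6.7e-05 (III), -0.13, -0.040 and -0.025 (IV) and -0.012, 0.0095 and 0.037 (V), and MT- complexes at -0.19, -0.11 and -0.11 (I), -0.16, -0.088 and -0.087 (III), -0.35, -0.14 and -0.15 (IV) and -0.32, -0.17 and -0.19 (V). Under TMM scaling the nuclear sum was -0.034, -0.0040 and 0.030 and the MT- sum -0.23, -0.11 and -0.10. Nuclear complexes were then at -0.076, -0.027 and 0.0033 (I), 0.061 for HA (II), -0.056, 0.0044 and 0.037 (III), -0.066, -0.017 and 0.012 (IV) and 0.052, 0.032 and 0.074 (V), and MT- complexes at -0.12, -0.083 and -0.074 (I), -0.094, -0.065 and -0.050 (III), -0.28, -0.11 and -0.11 (IV) and -0.26, -0.15 and -0.15 (V). With no filter on the MT- share, MT- complex I was at -0.15 (HA) and -0.087 (gRNA2), MT- complex IV at -0.31, -0.12 and -0.13, and MT- complex V at -0.15 (gRNA2). The 10 members at least 1.2-fold lower in the HA arm became 16 with nuclear UMIs as the total and 6 under TMM scaling. Members called in 1 edgeR model of the 5 samples, 0 higher and 0 lower, became 2 higher and 4 lower with no filter on low counts (4.98% and 3.41% of all genes), 2 lower in DESeq2 (2.63%), and from 0 to 5 higher and from 0 to 26 lower when 1 sample was left out (from 0 to 20% and from 0 to 17.0% of all genes). With 1 sample left out, counts above 0 came only from the fits without the HA control, HA FOSL1 or the VPR control. The residual of those fits comes from the difference between the guides alone. Their counts do not cover how cultures vary and are not read as results. In the interaction test 5 members were higher (3.81% of all genes), and 9 with no filter on the MT- share (4.90%). Leaving out a sample in the interaction test leaves no residual degrees of freedom and was not run. Depth limits the rare isoforms and antisense transcripts, counted at few or 0 UMIs.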
